A study of Mus musculus with 12 samples.

Results

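The clustered protocadherins are neuronal cell surface proteins encoded by neighbouring genes in the α, β and γ clusters. Rows of the gene table were taken as members where the gene name placed them in one of these clusters and the mean expected count over the 12 libraries was at least 10. Of 22236 rows, 24 carried such a name and 23 were members: 21 β genes, Pcdhb2 to Pcdhb22, 1 α row and 1 γ row. Pcdhb1, with a mean expected count of 9.08, lay just outside the limit, and Pcdhb21, with 50.3, was the lowest member. An expected count is the number of reads that the authors' quantifier assigned to a gene, including fractions of reads that match more than 1 gene.

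The libraries came from whole hippocampus of adult male mice aged 3 to 5 months, of the inbred strains C57BL/6J (B6) and DBA/2J (D2). At least 6 weeks earlier, the dorsal hippocampus had received on both sides an adeno-associated virus with a short hairpin RNA against Hp1bp3 (AAV9-shRNA-Hp1bp3, KD) or with a scrambled hairpin (AAV-scrmb-shRNA, Ctrl). Each of B6 Ctrl, B6 KD, D2 Ctrl and D2 KD held 3 libraries, and every mouse had been injected with virus. The virus was injected into the dorsal part while the whole hippocampus was sequenced, and the promoter that drove the hairpin is not given in the sources used here. The p-values set a difference between group means against the spread between libraries within groups. That spread was estimated over all 4 groups together, and part of it may be technical.

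Each protocadherin has extracellular cadherin repeats that bind the same isoform on a facing membrane, and this recognition lets the branches of a neuron avoid each other and helps synapses and axons to arrange themselves. A neuron switches on only a few variable exons, chosen through their promoters by CTCF and cohesin looping and kept or silenced through DNA and histone methylation. Genes of the α and γ clusters join a variable exon to constant exons that the whole cluster shares, whereas each β gene is a single large exon with its own cytoplasmic end. Hp1bp3 is a chromatin protein related to linker histone H1, and the comparisons ask whether lowering it changes the clustered genes on either background and how the backgrounds differ.

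The table did not resolve all 3 clusters equally. GENCODE M21, a mouse annotation on GRCm38, names 14 α, 22 β and 22 γ genes, and the table held 1, 22 and 1 rows with such names. The α row was labelled Pcdha2 (ENSMUSG00000007440), an identifier that GENCODE M21 calls Pcdha11. The γ row was labelled Pcdhga9 (ENSMUSG00000023036), an identifier that GENCODE M21 calls Pcdhgc4. Whether these rows cover 1 isoform or a whole cluster with its shared exons is not given by the file, so they are called the α row and the γ row. None of the C-type genes, the variable exons nearest the constant exons, had a row under its own name.

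The β genes lie side by side on chromosome 18, from 37264938 to 37524479 on GRCm38, and their exons are similar enough in sequence that reads can match more than 1 of them. An expected count was taken as whole when it lay within 0.005 of an integer. By that measure 7 of the 21 β members (Pcdhb2, Pcdhb13, Pcdhb14, Pcdhb15, Pcdhb16, Pcdhb18 and Pcdhb21) had whole counts in all 12 libraries, and 14 had a fractional count in at least 1 library. For comparison, 71.7% of all rows were whole in all 12 libraries. The α row, the γ row, Pcdhb7 and Pcdhb9 were fractional in all 12, so reads were shared with other transcripts there, and their levels depend on how those reads were divided.

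The libraries held 18.2 M to 39.4 M expected counts, of which a β member received between 22.98 and 845. Levels below are counts per 1 M reads (CPM) after scaling of the libraries by trimmed means. Hp1bp3 averaged 304 ± 9.06 CPM in Ctrl and 209 ± 43.5 CPM in KD mice of B6 (SD, n = 3 per group). In D2 mice the means were 225 ± 9.48 CPM with the scrambled hairpin and 190 ± 35.3 CPM after KD. Its log2 fold change, KD over Ctrl, was -0.39 ± 0.11 averaged over strains (SE, unadjusted p of 0.003675, adjusted p = 0.0907, edgeR). That decrease did not pass the threshold of 0.05 after adjustment over all tested genes. The authors reported the knockdown at the mRNA level and, by western blot, at the protein level. The library labelled D2 KD 3, at 230 CPM, lay inside the D2 Ctrl range of 215 to 234, against its label, and KD results are therefore also given without it. Without that library the Hp1bp3 log2 fold change was -0.48 ± 0.10 averaged over strains (SE, adjusted p = 0.02833, edgeR) and -0.54 ± 0.13 in B6 (SE, adjusted p = 0.04688, edgeR), both past the threshold. In D2 it was -0.41 ± 0.14 (SE, adjusted p = 0.5543, edgeR). The library had been set apart by its Hp1bp3 level, so a stronger decrease without it followed from that choice. These values are therefore no independent test of the knockdown. In B6 the estimate with all libraries was already -0.54 ± 0.15 (SE), so there the error changed and not the estimate. The summed level of 8 choroid plexus markers, among them Ttr, ran from 62.9 to 5168 CPM, with low and high libraries in every group. The summed level of 10 neuron markers ran from 7032 to 9168 CPM.

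The γ row was the member that differed most between the strains. In B6 it was at 744 CPM in the lowest, 779 in the median and 841 in the highest of 6 libraries, and in D2 at 28.3, 33.6 and 38. The strains did not overlap, and the mean was 23.6-fold higher in B6, 781 ± 36.5 against 33.1 ± 4.24 CPM (SD, n = 6 each). The log2 fold change, D2 over B6, was -4.56 ± 0.10 (SE, adjusted p = 1.24e-10, edgeR quasi-likelihood test with Benjamini-Hochberg adjustment). It was -4.56 in Ctrl mice alone and -4.56 in KD mice alone.

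The α row was also lower in D2. It was at 142 CPM in the lowest, 172 in the median and 203 in the highest B6 library, and at 10.0, 13.7 and 15.3 in D2. Again every B6 library was above every D2 library, and the mean in B6 was 13.0-fold that in D2. The log2 fold change was -3.70 ± 0.10 (SE, adjusted p = 7.158e-10, edgeR). In Ctrl mice alone it was -3.96 and in KD mice alone -3.44.

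Losses of this size were uncommon in the table. Of the 15853 genes tested, 141, or 0.889%, had a D2 mean at or under 10% of the B6 mean, a limit chosen after these values were seen. Among the 4806 genes with a B6 mean of at least 50 CPM there were 23, or 0.479%, the α and γ rows among them. Reads of each strain had been aligned to the genome of that strain, so a difference between the mice and a difference between the references cannot be told apart for these rows or for any other strain difference given here.

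**Figure D1:**
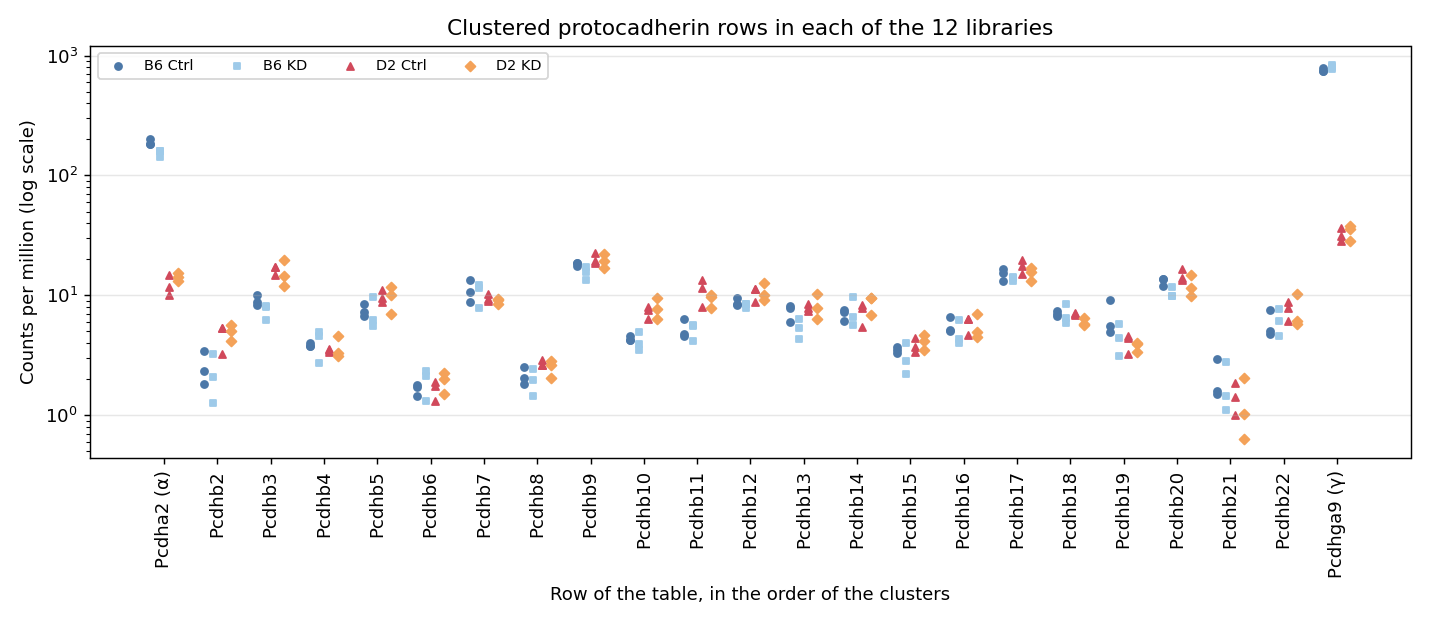
Level of each of the 23 members in each library, as CPM on a log axis, with members in the order of the clusters and a point for each library (3 per group). The α and γ rows of the D2 libraries lie far below those of the B6 libraries, the γ row at 28.3 to 38 against 744 to 841, while the β members of both strains lie in the same range.

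The β genes behaved differently from the α and γ rows. Of the 23 members 6 were called between the strains, 4 higher and 2 lower in D2, when 21.3% of all tested genes were. Over all tested genes 8.64% were called higher and 12.7% lower in that strain. The 4 that rose were all β genes, and both that fell were the α and γ rows. Of the 21 β members 16 had a higher estimate in D2 and 5 a lower one, with a median log2 fold change of 0.24, against 0.02 over all tested genes. The summed β level was 139 ± 16.5 CPM in B6 and 170 ± 13.2 in D2 (SD, n = 6 each). In whole tissue more cells of a type and more RNA per cell cannot be told apart.

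Markers of other cell types also differed between the strains. Neuron markers gave 1 call of 10, Eno2, higher in D2, and a median log2 fold change of 0.07. All 6 oligodendrocyte markers had a lower estimate in D2, with a median of -0.33, and Mobp was among those called, at -2.57. Called lower in D2 were also 2 of 8 microglia markers, Tmem119 and C1qb, and 1 of 5 endothelium markers, Flt1. Of 7 astrocyte and 8 choroid plexus markers 0 were called. The part of these cell types in the strain differences of the members was not tested.

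The 4 β genes that rose sit in adjacent pairs in the cluster, a feature noticed after their values were seen. The pair Pcdhb2 and Pcdhb3 lies at the upstream end of the members, and Pcdhb10 and Pcdhb11 lie in the middle. All 4 encode β protocadherins of the same domain plan, and the isoform that a neuron carries sets which other neurons it matches.

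Pcdhb3 was at 6.27 CPM in the lowest, 8.22 in the median and 10.1 in the highest B6 library, and at 11.9, 16.0 and 19.8 in D2. No D2 library was as low as the highest B6 library. The mean was 1.93-fold higher in D2 (log2 fold change 0.95 ± 0.13 SE, adjusted p = 2.332e-04, edgeR). Its expected count was fractional in 1 of the 12 libraries.

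Its neighbour Pcdhb2 ran from 1.26 CPM through a median of 2.2 to 3.41 in B6, and from 3.26 through 5.18 to 5.69 in D2. Here the strains overlapped, since D2 Ctrl 3 lay below 2 of the B6 libraries. The log2 fold change was 1.03 ± 0.25 (SE, adjusted p = 0.01189, edgeR), and in Ctrl mice alone 0.89 with an adjusted p of 0.1515, which did not pass. All its counts were whole.

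Pcdhb11 ran from 4.16 CPM through a median of 5.13 to 6.33 in B6, and from 7.78 through 9.89 to 13.4 in D2. The strains did not overlap, and the log2 fold change was 0.96 ± 0.15 (SE, adjusted p = 7.508e-04, edgeR). Pcdhb10 ran from 3.48 CPM through 4.23 to 4.91 in B6, and from 6.34 through 7.61 to 9.54 in D2. It too was higher in every D2 library, by a log2 fold change of 0.84 ± 0.13 (SE, adjusted p = 5.936e-04, edgeR). Fractional counts occurred for Pcdhb11 in 8 libraries and for Pcdhb10 in 9, and the part of shared reads in these differences was not tested.

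Counted by library, 3 members lay higher in all 6 D2 than in all 6 B6 libraries and 2 lay lower, when 5.51% of all tested genes lay wholly higher and 9% wholly lower. The 3 were Pcdhb3, Pcdhb10 and Pcdhb11.

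The other 17 β members did not pass the test, with log2 fold changes from -0.52 for Pcdhb21 (SE 0.35, adjusted p = 0.3687, edgeR) to 0.41 for Pcdhb5 (SE 0.17, adjusted p = 0.1253, edgeR). Pcdhb12 and Pcdhb9, at 0.30 (adjusted p = 0.06219, edgeR) and 0.24 (adjusted p = 0.08933, edgeR), were nearest to the threshold, and both passed it in a DESeq2 fit, which called 8 members. In edgeR Pcdhb9 passed as well without D2 KD 3 (adjusted p = 0.0454) and without B6 KD 3 (adjusted p = 0.03038). Pcdhb12 passed in edgeR with the choroid plexus sum as a covariate (adjusted p = 0.0243). It also passed without D2 Ctrl 3 (adjusted p = 0.02564, edgeR) and without D2 KD 1 (adjusted p = 0.03479, edgeR). Pcdhb5 passed in edgeR with the choroid plexus sum as a covariate (adjusted p = 0.02683), without B6 KD 1 (adjusted p = 0.0217) and without D2 KD 1 (adjusted p = 0.04969). Pcdhb6 was at 1.78 CPM in both strains. The standard errors of β members in this comparison ran from 0.09 to 0.35 with a median of 0.16, so differences not much larger than these errors were not detectable.

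**Figure D2:**
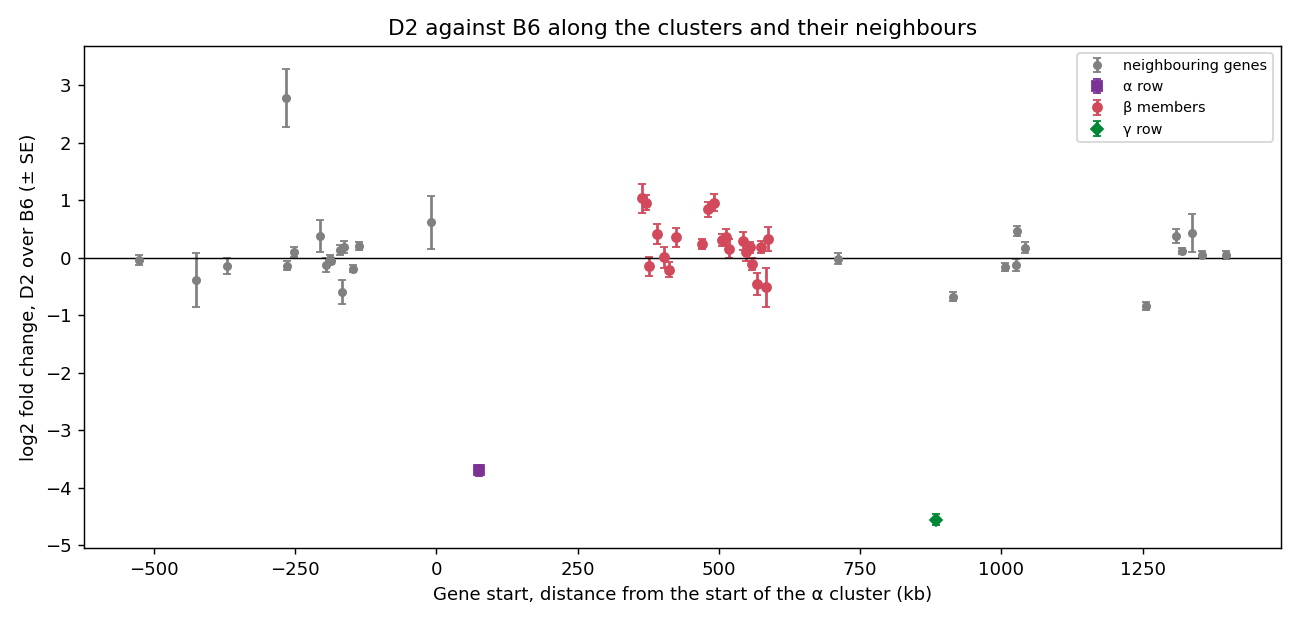
Difference between the strains for members and for the tested genes within 500 kb of the clusters, as log2 fold change of D2 over B6 with its standard error, against the distance of the gene start from the start of the α cluster in kb. Gene start is the lower coordinate of the gene on the chromosome, whichever its strand. The α and γ rows lie at -3.70 and -4.56 and the 21 β members between -0.52 and 1.03. The neighbouring genes lie between -0.84 and 2.77.

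No tested gene around the α and γ rows had a drop as large as theirs. Of 32 other genes with a row within 500 kb of the clusters, a window chosen after the data were seen, 28 were tested and 5 called, 2 higher and 3 lower in D2. That is 17.9% of them, near the 21.3% called over all tested genes. Their median log2 fold change was 0.02. Taf7, a subunit of the general transcription factor TFIID whose gene lies between the β and γ clusters, was at -0.02 (adjusted p = 0.9143, edgeR). Diap1, whose span on the chromosome lies just past the end of the γ row, was called lower in D2, at -0.68 ± 0.08 (SE, adjusted p = 9.432e-05, edgeR). The lowest was Pcdh1, a non-clustered protocadherin, at -0.84 (adjusted p = 6.439e-06, edgeR), and the highest Eif4ebp3, an inhibitor of cap-dependent translation, at 2.77 (adjusted p = 0.001954, edgeR).

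Levels of different β genes were compared as CPM per kb of exon annotated in GENCODE M21, which ran from 2801 to 8695 bases. Pcdhb9 was the highest β member per length in both strains, at 5.50 ± 0.65 CPM per kb in B6 and 6.48 ± 0.70 in D2 (SD, n = 6 each). Its counts were fractional in all 12 libraries, so its level and rank depend on how shared reads were divided. Pcdhb21 was the lowest, at 0.40 ± 0.16 and 0.28 ± 0.12. Next to it stood Pcdhb6, at 0.48 ± 0.10 and 0.47 ± 0.09, and the libraries of Pcdhb6 and Pcdhb21 overlapped in both strains.

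Most of the order was shared. In B6 Pcdhb9 was followed by Pcdhb20 (3.30 ± 0.47), Pcdhb17 (3.09 ± 0.28), Pcdhb7 (3.06 ± 0.59) and Pcdhb12 (2.80 ± 0.18), whose libraries overlapped. In D2 Pcdhb9 was followed by Pcdhb3 (4.20 ± 0.74), Pcdhb20 (3.75 ± 0.67), Pcdhb17 (3.51 ± 0.49) and Pcdhb12 (3.45 ± 0.48), whose libraries again overlapped. Pcdhb3 moved from rank 6 among the 21 in B6 to rank 2 in D2. The lowest Pcdhb9 library, 4.39 in B6 and 5.55 in D2, stayed above the highest library of any other β member in each strain.

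**Figure D3:**
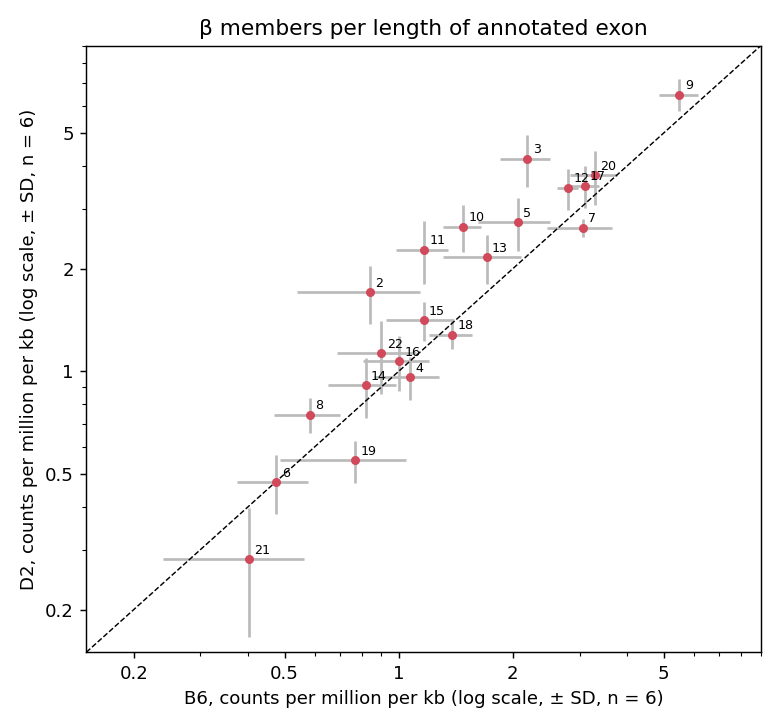
Mean level of each of the 21 β members in B6 against D2, as CPM per kb of annotated exon on log axes, with bars of 1 SD over 6 libraries per strain, the gene's number beside its point and a dashed line of equal level. Pcdhb9 lies at the top and Pcdhb21 at the bottom in both strains, and Pcdhb2, Pcdhb3, Pcdhb10 and Pcdhb11 lie farthest above the line.

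No member passed the test for KD against Ctrl. Averaged over strains 0 of 23 were called, when 0% of all tested genes were. DESeq2 called 7.83% of its genes and limma-voom 0 genes, and neither called a member. At an unadjusted p under 0.05 edgeR gave 3046 genes, of which 1 was a member, Pcdhb20. Of the 23 members 17 had a lower estimate in KD, with a median log2 fold change of -0.07. Over all tested genes 48.8% had a lower estimate and the median was 0.01. The 10 neuron markers had a median of -0.03, with 4 higher estimates.

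Pcdhb20 was at 13.6, 11.9 and 13.6 CPM in the B6 Ctrl libraries and at 9.90, 9.78 and 11.7 in B6 KD. In D2 it was at 16.6, 13.5 and 14.0 in Ctrl and at 11.5, 9.86 and 14.7 in KD. The groups did not overlap in B6, and in D2 only the library labelled D2 KD 3 reached the Ctrl range. Its log2 fold change averaged over strains was -0.30 ± 0.11 (SE, unadjusted p of 0.0178, adjusted p = 0.1709, edgeR). Without D2 KD 3 it was -0.39 ± 0.10 with an adjusted p of 0.0488 (edgeR), which passed, making Pcdhb20 the 1 member called when 4.97% of all tested genes were. Leaving out no other library brought a member past the threshold.

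The estimates next lowest in p were those of Pcdhb19, at -0.34 ± 0.20 (SE, adjusted p = 0.3702, edgeR), and Pcdhb17, at -0.16 ± 0.09 (SE, adjusted p = 0.387, edgeR). Positive estimates were small beside their errors: 0.20 ± 0.19 for Pcdhb6, 0.17 ± 0.17 for Pcdhb14 and 0.09 ± 0.08 for the γ row.

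In B6, where 2.64% of all tested genes were called, 0 of 23 members were. DESeq2 called 10.7% of its genes there and 0 members. The estimates lay below zero for 18 of 23, with a median of -0.12 and a range from -0.57 to 0.19. The 10 neuron markers had the same median of -0.12 in this comparison, with 3 higher estimates and 0 called. At an unadjusted p under 0.05 were the α row and Pcdhb13.

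The α row was at 185, 182 and 203 CPM in B6 Ctrl and at 161, 142 and 159 in B6 KD. All 3 KD libraries were below all 3 Ctrl libraries. The log2 fold change was -0.30 ± 0.13 (SE, unadjusted p of 0.0352, adjusted p = 0.2056, edgeR). Pcdhb13 was at 7.79, 6.00 and 8.18 CPM in B6 Ctrl and at 6.33, 4.30 and 5.34 in B6 KD, so that B6 KD 1 lay above B6 Ctrl 2. Its log2 fold change was -0.46 ± 0.21 (SE, unadjusted p of 0.0479, adjusted p = 0.2377, edgeR).

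Pcdhb19 had the lowest estimate in B6, -0.57 ± 0.28 (SE, adjusted p = 0.2698, edgeR). Its Ctrl libraries were at 4.96, 5.58 and 9.08 CPM and its KD libraries at 5.70, 4.43 and 3.10. The groups overlapped, and B6 Ctrl 3 stood well above the rest. The estimate was -0.28 without B6 Ctrl 3 and ran to -0.84 without B6 KD 1, and it passed the test in neither fit. The highest estimates in B6 were 0.19 for Pcdhb6, 0.09 for the γ row and 0.08 for Pcdhb14. The B6 means of the γ row were 757 ± 22.8 CPM in Ctrl mice and 804 ± 34.0 CPM after KD (SD, n = 3 per group).

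Counted by library, 4 of 23 members lay wholly lower in B6 KD and 0 wholly higher, when 14.0% of all tested genes lay wholly lower and 13.9% wholly higher. The 4 were the α row, Pcdhb3, Pcdhb9 and Pcdhb20. Microglia markers stood apart between the same groups, their summed level over 8 genes being 412 to 476 CPM in B6 Ctrl and 588 to 953 in B6 KD. The choroid plexus sum was 81.1 to 2747 CPM in B6 Ctrl and 151 to 5100 in B6 KD. With that sum as a covariate 0 members and 0 genes in all were called in B6. The part of the neuron, microglia and astrocyte levels in the estimates was not tested.

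In D2, 0 of 23 members were called, when 0% of all tested genes were. Estimates were lower for 13 and higher for 10, with a median of -0.04 and a range from -0.29 for Pcdhb20 to 0.26 for Pcdhb14. At an unadjusted p under 0.05 there were 452 genes in all and 0 members. DESeq2 and limma-voom also called 0 members. Without D2 KD 3 the count of members stayed at 0, with Pcdhb20 at -0.47 ± 0.14 (SE, adjusted p = 0.5224, edgeR).

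Pcdhb18 was the 1 member of 23 that lay wholly lower in D2 KD, when 3.03% of all tested genes did, and 0 members lay wholly higher, when 2.93% did. It was at 7.03, 7.08 and 6.82 CPM in D2 Ctrl and at 5.66, 6.42 and 5.79 in D2 KD. The log2 fold change was -0.23 ± 0.15 (SE, adjusted p = 1, edgeR). The B6 means of the same gene were 7.02 ± 0.32 CPM for Ctrl and 6.93 ± 1.41 CPM for KD (SD, n = 3 per group), with overlapping libraries.

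**Figure D4:**
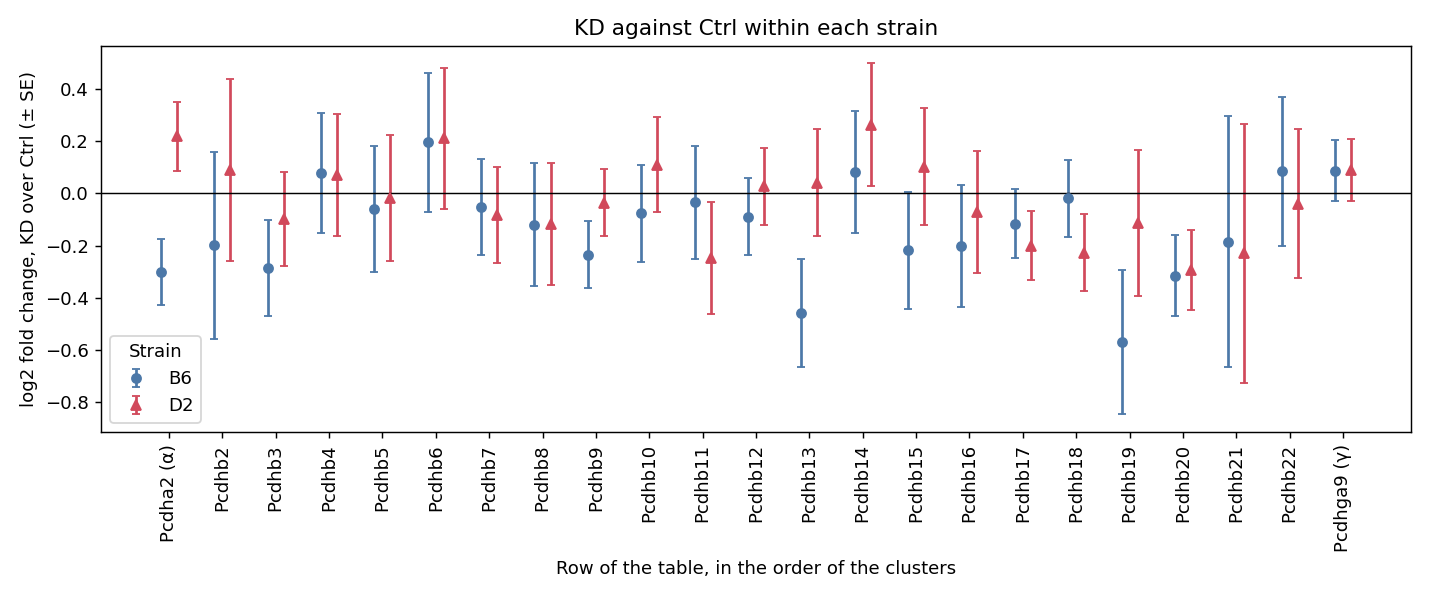
Difference between KD and Ctrl for each of the 23 members, as log2 fold change of KD over Ctrl with its standard error, in B6 (circles) and D2 (triangles), 3 libraries per group. The estimates lie between -0.57 and 0.26, and 0 members passed the test in either strain.

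The test of the strain by treatment interaction asked whether KD acted differently in the 2 strains. It called 0 of 23 members, when 0% of all tested genes were called, and DESeq2 and limma-voom also called 0 members. The α row was the 1 member among 937 genes that lay under an unadjusted p of 0.05. Its KD estimate was -0.30 in B6 and 0.22 in D2, a difference of 0.52 ± 0.18 (SE, unadjusted p of 0.0157, adjusted p = 0.8215, edgeR), and without D2 KD 3 the difference was 0.52 with an adjusted p of 0.976. In D2 it was at 14.9, 11.7 and 10.0 CPM in Ctrl and at 15.3, 13.2 and 14.2 in KD, so the D2 groups overlapped while the B6 groups did not.

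Pcdhb13 and Pcdhb19 had the next smallest p-values, with differences of 0.50 ± 0.29 (SE, adjusted p = 0.8938, edgeR) and 0.46 ± 0.39 (SE, adjusted p = 0.9571, edgeR). The KD estimates of Pcdhb20 were -0.32 ± 0.15 in B6 and -0.29 ± 0.15 in D2. Standard errors of the interaction ran from 0.16 to 0.69 over the members, so a difference between strains of the size of the KD estimates themselves was not detectable.

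Genes that act on or beside the clustered protocadherins were taken as 4 lists. They held 12 non-clustered protocadherins, 10 tested genes of CTCF, cohesin and looping, 14 genes that silence the clusters and 18 signalling partners. By edgeR 0 of these genes were called for KD averaged over strains, in B6, in D2 or in the interaction, while 11, 9, 1 and 0 had an unadjusted p under 0.05. Over the 15853 tested genes these numbers were 3046, 3262, 452 and 937. DESeq2, which called 7.83% of its genes averaged over strains, called 6 of the listed genes, among them the non-clustered Pcdh8, Pcdh19 and Pcdh20, whose edgeR estimates were 0.86, -0.39 and -0.44, and limma-voom called 0. The median estimate averaged over strains was -0.02 for non-clustered protocadherins, -0.08 for the looping genes, -0.11 for the silencing genes and 0.00 for the signalling partners.

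Between the strains 8 genes of these lists were called, 4 of 12, 1 of 10, 1 of 14 and 2 of 18, beside 21.3% of all tested genes. Among non-clustered protocadherins, which are encoded outside the clusters and act in cell adhesion, 3 of 12 rose in D2 and 1 fell. Those that rose were Pcdh15, an adhesion molecule of sensory hair cells, at 1.41 ± 0.21 (SE, adjusted p = 5.079e-04, edgeR), Pcdh7 at 1.37 ± 0.26 (SE, adjusted p = 0.002617, edgeR) and Pcdh9 at 0.92 ± 0.27 (SE, adjusted p = 0.03284, edgeR). Pcdh1 was the 1 that fell.

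Of the looping genes 1 of 10 was called, Mau2, a subunit of the cohesin loader, at 0.42 ± 0.13 (SE, adjusted p = 0.03767, edgeR). Of the silencing genes 1 of 14 was called, Cbx1, which encodes heterochromatin protein 1β, at -1.12 ± 0.07 (SE, adjusted p = 5.786e-07, edgeR). Among the signalling partners Ret, a receptor tyrosine kinase that can pair with clustered protocadherins, rose by 1.21 ± 0.29 on the log2 scale (adjusted p = 0.01076, edgeR). Nckap1, a subunit of the WAVE complex that binds their cytoplasmic ends, was lower at -0.32 ± 0.09 (SE, adjusted p = 0.0225, edgeR).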

How the data were processed

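Messenger RNA of hippocampus was sequenced in 12 libraries. The authors aligned B6 and D2 reads each to a genome of the matching strain and quantified genes with RSEM 1.2.12 and Bowtie2 2.2.0. After a barcode clash libraries were sequenced again and runs joined for most of them. Their processing notes name GRCm38, and the annotation release is not given in the sources used here. The deposited expected counts are estimated counts per gene, not normalized. A second deposited table of normalized counts was not used.

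Expected counts were rounded and genes filtered with filterByExpr over the 4 groups, which left 15853, all 23 members among them. They were tested with the quasi-likelihood test of edgeR 4.0.16 (robust, TMM) in R 4.3.3, 1 mean per group, with adjusted p under 0.05 called over all tested genes. Standard errors are the log2 fold change over the square root of F and approximate. Alternatives used DESeq2 1.42.0, limma 3.58.1 (voom), other edgeR settings, covariates, and fits without each library. The members and lists were chosen with earlier results of these data known. Named genes were those called, up to 6 in each direction, or otherwise the 3 smallest p in each direction. The fit was tested on simulated data. No sequence is shown.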

Additional observations from a re-analysis of the deposited data

How the results depend on the processing

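The count of members called for KD was 0 averaged over strains, in B6, in D2 and in the interaction under DESeq2, limma-voom, size factors, no filter, the newer quasi-likelihood method, no robust estimation, the library total as covariate and the choroid plexus sum as covariate, the last added after the data were seen. Over all genes the count depended on the tool, with 1241 called averaged over strains by DESeq2, 15 by the newer quasi-likelihood method and 0 by edgeR as used here, and 1688 in B6 by DESeq2 against 418, or 0 with either covariate. Without each library in turn the count of members ran from 0 to 1 averaged over strains, the 1 being Pcdhb20 without D2 KD 3, and stayed at 0 in B6, in D2 and in the interaction. In B6 the estimate of Pcdhb14 ran from -0.22 to 0.21 without each library in turn, below zero without B6 Ctrl 1 or B6 KD 1. Between the strains 6 members were called, 5 in Ctrl mice alone, 8 by DESeq2 and with the choroid plexus sum as covariate, and 6 to 8 without each library in turn. The α row, the γ row, Pcdhb2, Pcdhb3, Pcdhb10 and Pcdhb11 passed in all 12 fits without 1 library, with an adjusted p of at most 0.03282 (Pcdhb2, edgeR). No paired analysis was possible because replicate numbers were given in order of deposit and pair no libraries. With 3 libraries per group and median standard errors of 0.22 for β members within a strain, small KD differences were not detectable.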

Other observations

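Pcdhb1, the β gene below the limit on counts, received 0 to 8 expected counts in the 6 B6 libraries and 5 to 28 in the 6 D2 libraries. Its level ran from 0 to 0.227 CPM in B6 and from 0.132 to 1.25 CPM in D2, and the strains overlapped. It was not tested.

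The spread of the β members between libraries of a group was mostly below the trend of genes at their abundance. Their median coefficient of variation beyond counting error was 20.2%, from 13.4% to 40.8%, against 15.7% over all tested genes. Of the 21, 1 (Pcdhb21) lay above the trend, while 24.9% of all tested genes did.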
